A study of Mus musculus with 6 samples.

Results

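The genes of the interferon response and of class I antigen presentation were examined in retinal progenitor cells (RPCs) with and without Pax6. They are 40 genes named by symbol, chosen for what they encode: interferon receptors, Janus kinases, STATs and interferon regulatory factors, feedback inhibitors, RNA sensors, antiviral effectors, class I molecules, and the immunoproteasome and peptide loading genes. The choice was made with earlier results of these data known. Of the 40 genes, 39 were measured by a probe set annotated to that gene alone, out of 18193 genes on the array, and they held 77 of 45037 probe sets. The only probe set of Isg15 is also annotated to Gm9706, so Isg15 was left out of every count. Each gene was represented by its brightest probe set, by the mean of the 6 arrays.

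Interferons are secreted signals that bind paired receptor chains. The receptors activate Janus kinases, which phosphorylate STAT proteins. STATs, alone or with the interferon regulatory factor Irf9, then bind the interferon-stimulated response element (ISRE) or the gamma-activated sequence (GAS) near their target genes. Among the targets are antiviral effectors and the machinery that cuts, transports and displays peptides on class I molecules at the cell surface, which many tissues also express at a low level without infection.

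Both groups carried the alpha-Cre transgene in the ICR strain, an outbred mouse stock. In this transgene, Pax6 promoter and enhancer elements active in the distal optic cup drive Cre and GFP. Control embryos had wild-type Pax6, and mutant embryos were Pax6 loxP/loxP alpha-Cre, homozygous for the floxed allele. In the mutant embryos, Cre removes the floxed exons of Pax6. GFP-positive cells were sorted from the eyes of E12 embryos (12 days after the plug) in pools of about 1800000 cells, and 3 pools of each group, labelled as biological repeats, were hybridised to 1 Affymetrix array each. Cre is not active in every RPC, so a mutant pool may hold cells that kept Pax6, and the sources used here do not give the number of embryos in a pool.

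All values below are log2 of the deposited RMA intensity, and a log2 change is the mutant mean minus the control mean on that scale. The level of a gene is given relative to the array median and is not compared between genes, since probe sets differ in brightness for the same amount of RNA. A gene was called where its fold change was at least 1.5, its p was under 0.05 and its adjusted p, from limma with the Benjamini-Hochberg method over all probe sets, was under 0.10. The number of arrays, 3 in each group, limits the precision, and the p-values measure the spread between these pools. The array medians lay between 3.68 and 3.71. As a check of the labels, 1 of 5 Pax6 probe sets fell, from 6.34, 6.44 and 6.14 in control to 4.79, 4.88 and 4.45 in mutant RPCs, while the brightest was not called (log2 change of -0.11). Of 9 measured progenitor markers, all were above the array median in control RPCs, and 2, Fgf15 and Sfrp2, fell, against 0.918% of all genes. In such bulk samples, fewer cells of a type and less RNA per cell cannot be told apart.

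In the Pax6-deficient RPCs, 2 of the 39 genes rose, Ifitm3 and Irf2, and none fell. Over all genes, 2.28% rose and 0.918% fell by the same call. At an adjusted p under 0.10 with no fold threshold, 8 genes were higher, against 7.15% of all genes, and 0 were lower, against 5.22%. The remaining 6 of these 8, Jak2, Stat3, Ifitm2, B2m, H2-D1 and H2-K1, had changes of less than 1.5-fold. At an unadjusted p under 0.05, 13 genes were higher, against 12.8% of all genes, and 1, Tap2, was lower, against 11.6%. The median log2 change was 0.12 over the 39 genes, from -0.21 to 1.23, and -0.01 over all genes. The sign was positive for 31 of 39 genes and for 47.1% of all genes. All 3 mutant arrays lay above all 3 control arrays for 15 genes, against 17.0% of all genes, and below them for 1, against 16.4%, and the groups overlapped for 23. Without any 1 of the mutant arrays, 4 genes had an adjusted p under 0.10, and without control replicate 2 there were 5.

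**Figure D1:**
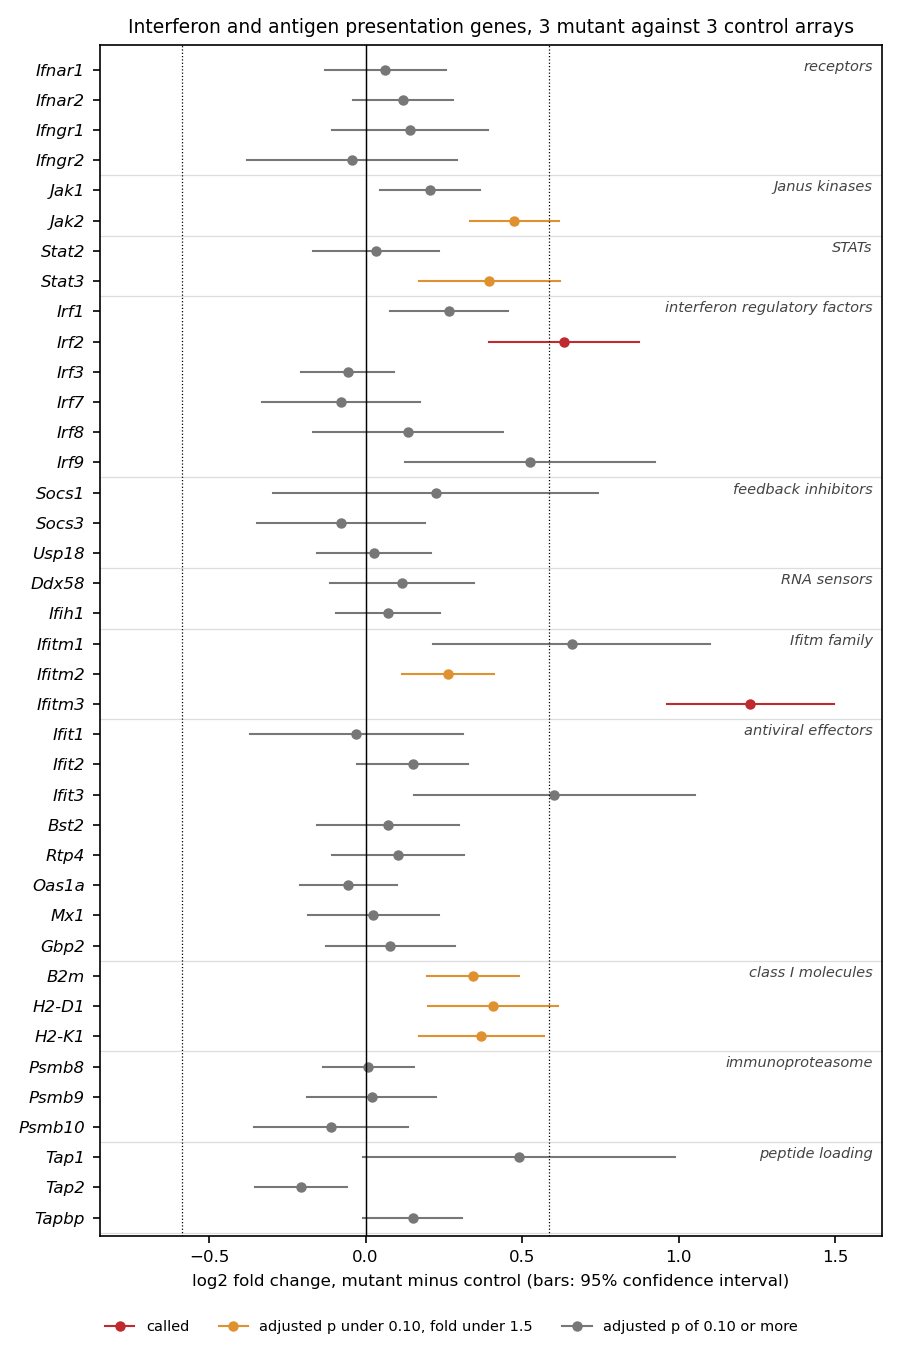
Log2 change, mutant minus control, of the 39 genes in order of role, with 95% confidence intervals from limma over 3 arrays in each group. Dotted lines mark a 1.5-fold change, and red marks the called genes Ifitm3 and Irf2; the 6 genes in orange had an adjusted p under 0.10 and a smaller fold change.

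The sequences around the start sites of 6 genes are shown because they set the motifs read by STATs and interferon regulatory factors beside genes that rose and genes that did not. They are those of the 3 Ifitm genes and Irf2, of B2m, the shared chain of class I molecules, and of Ifit1, a classic interferon target. Each window runs from 250 bases before to 50 bases after the start, 5′ to 3′ on the gene's strand, from RefSeq on GRCm38.p6. Capitals mark matches to the ISRE letters GAAANNGAAA or the GAS letters TTCNNNGAA, searched on both strands, where N is any base.
Ifitm3, chr7:141010695-141010994, minus strand: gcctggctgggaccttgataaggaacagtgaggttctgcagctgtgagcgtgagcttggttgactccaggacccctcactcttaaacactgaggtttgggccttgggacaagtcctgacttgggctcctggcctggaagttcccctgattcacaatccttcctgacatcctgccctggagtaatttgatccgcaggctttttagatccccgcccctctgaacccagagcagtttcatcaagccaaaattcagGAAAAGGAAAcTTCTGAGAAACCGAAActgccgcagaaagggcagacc
Ifitm2, chr7:140955912-140956211, minus strand: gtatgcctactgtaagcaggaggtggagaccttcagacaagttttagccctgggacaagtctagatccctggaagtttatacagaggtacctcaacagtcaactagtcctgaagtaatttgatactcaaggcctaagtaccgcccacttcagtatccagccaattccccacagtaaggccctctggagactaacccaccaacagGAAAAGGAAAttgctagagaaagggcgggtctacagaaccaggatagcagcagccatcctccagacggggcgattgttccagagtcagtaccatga
Ifitm1, chr7:140967826-140968125, plus strand: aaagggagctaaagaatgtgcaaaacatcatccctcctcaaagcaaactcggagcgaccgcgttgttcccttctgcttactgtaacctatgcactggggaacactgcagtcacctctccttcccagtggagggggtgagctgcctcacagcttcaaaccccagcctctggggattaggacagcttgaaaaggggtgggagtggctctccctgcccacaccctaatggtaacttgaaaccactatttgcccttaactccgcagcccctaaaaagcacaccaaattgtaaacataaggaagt
Irf2, chr8:46739495-46739794, plus strand: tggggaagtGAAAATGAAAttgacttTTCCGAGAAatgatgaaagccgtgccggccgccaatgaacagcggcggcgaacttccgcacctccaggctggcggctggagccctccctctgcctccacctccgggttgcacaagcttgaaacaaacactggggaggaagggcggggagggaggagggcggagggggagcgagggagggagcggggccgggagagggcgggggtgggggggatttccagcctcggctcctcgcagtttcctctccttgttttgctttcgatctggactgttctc
B2m, chr2:122147437-122147736, plus strand: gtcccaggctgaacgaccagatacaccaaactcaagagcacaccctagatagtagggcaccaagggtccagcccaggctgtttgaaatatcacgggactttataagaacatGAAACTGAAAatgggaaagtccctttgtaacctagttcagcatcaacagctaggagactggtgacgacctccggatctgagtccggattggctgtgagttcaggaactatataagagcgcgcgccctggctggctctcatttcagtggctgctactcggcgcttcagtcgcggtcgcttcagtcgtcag
Ifit1, chr19:34640639-34640938, plus strand: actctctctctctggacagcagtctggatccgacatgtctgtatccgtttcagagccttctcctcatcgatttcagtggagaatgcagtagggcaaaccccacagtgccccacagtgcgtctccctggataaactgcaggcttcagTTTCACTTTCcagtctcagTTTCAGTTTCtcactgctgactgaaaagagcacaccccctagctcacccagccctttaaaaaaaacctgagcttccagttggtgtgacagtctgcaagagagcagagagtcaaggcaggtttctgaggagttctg

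In the Ifitm3 window, ISRE matches began at positions 3 and 20 counted from the start site, and a GAS match beginning at position 14 overlapped the second of them. The Ifitm2 window held 1 ISRE match, at -46, and the Ifitm1 window held neither set of letters. Irf2 had an ISRE match at -241 and a GAS match at -224, B2m an ISRE match at -139, and Ifit1 ISRE matches at -104 and -85. Of the 36 genes with a RefSeq window, 14 held the ISRE letters, against 3.99% of 27018 genes, and 11 held the GAS letters, against 9.55%. The list was made of interferon pathway and target genes, so larger shares follow from how it was chosen and are not a result of the mutant comparison. Both kinds of match overlapped in 24 windows of all genes, of which 2 belonged to the listed genes, Ifitm3 and Bst2. Bst2 was not called, with a log2 change of 0.07. Mx1, Usp18, Rtp4 and Tap2 had no window. Among the 13 measured genes with an ISRE match, 2 rose, against 2.28% of all genes, and the median log2 change was 0.12. Among the 22 measured genes without one, none was called and the median was 0.15. A match describes the letters in these windows, and binding was not measured.

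The receptors for both kinds of interferon were measured. Ifnar1 and Ifnar2 form the type I receptor, and Ifngr1 and Ifngr2 the receptor for interferon gamma. All 4 were above the array median in control RPCs, none was called, and mutant and control arrays overlapped for each. The log2 change of Ifnar1 was 0.06 (95% confidence interval -0.13 to 0.26) and that of Ifnar2 was 0.12 (-0.04 to 0.28). For Ifngr1 it was 0.14 (-0.11 to 0.39), and for Ifngr2 it was -0.04 (-0.38 to 0.29). Each of these intervals, from the brightest probe set, lies within a 1.5-fold change in either direction. Other probe sets differed. For Ifnar1, a dimmer one below the array median gave -0.39 (-0.81 to 0.03). For Ifnar2, the next brightest gave 0.30 (0.09 to 0.52, limma adjusted p = 0.111), with every mutant array above every control array. The dimmest Ifnar2 probe set gave 0.27 (-0.01 to 0.55), and the other Ifngr2 probe set 0.10 (-0.13 to 0.34).

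Of the kinases next to the receptors, Jak2 serves the interferon gamma receptor and many cytokine receptors. Its log2 intensities were 6.50, 6.47 and 6.57 in control and 7.03, 6.95 and 6.98 in mutant RPCs. The groups did not overlap. For Jak2 the log2 change was 0.48 (standard error, SE, of 0.06 and limma adjusted p = 0.0104), a 1.39-fold difference, which missed the fold threshold. A second Jak2 probe set gave 0.41 (limma adjusted p = 0.0992). Jak1, which serves both interferon receptors, was at 8.05, 8.23 and 8.17 in control and 8.38, 8.32 and 8.38 in mutant RPCs, again without overlap. Its log2 change was 0.21 (limma adjusted p = 0.141).

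Of the STATs, 2 were measured and neither was called. Stat3, which carries signals of the interleukin 6 family as well as of interferons, was at 8.67, 8.57 and 8.89 in control and 9.03, 9.16 and 9.12 in mutant RPCs. All mutant values exceeded all control values. Stat3 had a log2 change of 0.40 (SE 0.10, limma adjusted p = 0.0631). Its next brightest probe set gave 0.29 (limma adjusted p = 0.0296), and the 2 dimmer ones gave -0.18 and -0.07. Stat2, which is confined to type I and type III interferon signalling, was below the array median in control RPCs, with a log2 change of 0.03 (95% confidence interval -0.17 to 0.24).

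Among the 6 interferon regulatory factors, Irf2 rose and the other 5 were not called. Irf2 binds the same DNA element as Irf1 and is known mainly as a repressor of interferon target genes. Its log2 intensities were 4.23, 4.19 and 4.07 in control and 5.01, 4.71 and 4.68 in mutant RPCs. The mutant arrays were all higher, with replicate 1 the highest, and the control mean was 0.46 above the array median. Irf2 had a log2 change of 0.63 (SE 0.10, 95% confidence interval 0.39 to 0.87, limma adjusted p = 0.0199), a 1.55-fold rise. This lies just above the fold threshold: without mutant replicate 1 it was 0.53 and Irf2 was not called.

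Irf1, an activator of class I and other interferon targets, was at 6.15, 6.40 and 6.20 in control and 6.51, 6.51 and 6.53 in mutant RPCs. The groups did not overlap, and the log2 change was 0.27 (limma adjusted p = 0.112). Irf9, the DNA-binding partner of STATs at the ISRE, was at 4.43, 4.62 and 5.06 in control and 5.32, 5.35 and 5.02 in mutant RPCs. Control replicate 3 lay above mutant replicate 3, so the groups overlapped. Irf9 had a log2 change of 0.53 (limma adjusted p = 0.136), and without control replicate 3 it was 0.70 and was called. Irf3 and Irf7, the factors that drive interferon genes after virus sensing, had log2 changes of -0.06 and -0.08, and Irf8, a factor of myeloid cells, had 0.14. Irf7 was below the array median in control RPCs.

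No feedback inhibitor and no RNA sensor was called. Socs1 and Socs3 bind Janus kinases and damp their signal, and Usp18 blocks the type I receptor. Their log2 changes were 0.22 (95% confidence interval -0.29 to 0.74), -0.08 (-0.35 to 0.19) and 0.03 (-0.16 to 0.21). The interval of Socs1 is wide and includes changes above 1.5-fold. Ddx58 and Ifih1, which encode the RNA sensors RIG-I and MDA5, had log2 changes of 0.12 (-0.11 to 0.35) and 0.07 (-0.09 to 0.24). Both were below the array median in control RPCs.

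The Ifitm family held the largest rise of the 39 genes. Ifitm proteins are small membrane proteins that restrict the entry of enveloped viruses, and Ifitm3, also known as fragilis, is a marker of early germ cells too. Ifitm3 was at 6.76, 6.76 and 6.94 in control and 8.22, 8.11 and 7.82 in mutant RPCs. The lowest mutant array lay well above the highest control array. The control mean was 6.82 ± 0.10 and the mutant mean 8.05 ± 0.20 (SD, n = 3 each). This was a log2 change of 1.23 (SE 0.11, limma adjusted p = 0.00423), or 2.35-fold with a 95% confidence interval of 1.95 to 2.82. The call held in each of 16 alternative settings.

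The neighbouring genes Ifitm1 and Ifitm2 on chromosome 7 were also higher on all mutant arrays, and neither was called. Ifitm1 was at 4.62, 4.21 and 4.64 in control and 5.37, 5.31 and 4.76 in mutant RPCs. Mutant replicate 3 was close to the control arrays. Its log2 change was 0.66 (SE 0.19, limma adjusted p = 0.1001), which missed the adjusted p threshold narrowly, and without mutant replicate 3 it was 0.85 and was called. Ifitm2, whose probe set was far above the array median, was at 9.49, 9.39 and 9.51 in control and 9.70, 9.72 and 9.76 in mutant RPCs. Here the mutant arrays were tightly grouped above the control arrays, and the difference was small, with a log2 change of 0.26 (SE 0.06, limma adjusted p = 0.0592). The 3 genes are close paralogues, so part of a signal may come from a related transcript, and whether they differed in their change was not tested.

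**Figure D2:**
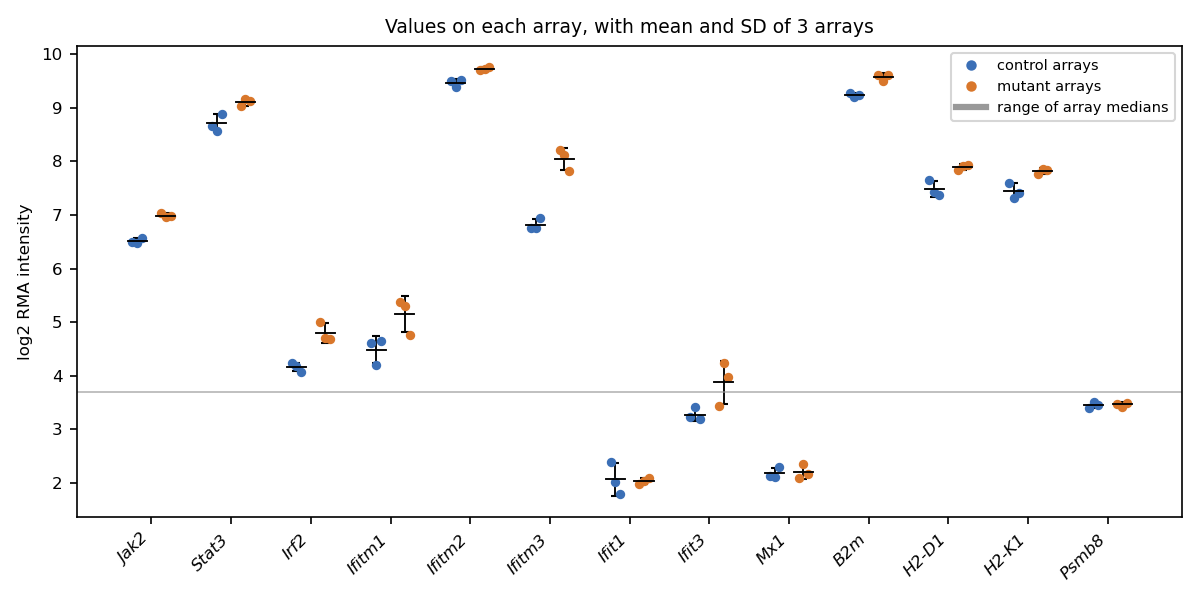
Log2 RMA intensity of 13 genes on each of 3 control and 3 mutant arrays, with the mean and SD as bars and the range of the array medians as a grey line. Mutant arrays of Ifitm3 lay between 7.82 and 8.22 and control arrays between 6.76 and 6.94, whereas those of Ifit1, Mx1 and Psmb8 overlapped below the array medians.

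At an unadjusted p under 0.05, 1 antiviral effector, Ifit3, was higher, against 12.8% of all genes. None of the 8 classic antiviral effectors measured was called. Of these, 5 were below the array median in control RPCs, among them Ifit1 and Ifit3, of a family that binds foreign RNA, and Mx1, a GTPase that blocks influenza viruses. Ifit1 was at 2.40, 2.01 and 1.80 in control and 1.98, 2.04 and 2.10 in mutant RPCs, with a log2 change of -0.03 (95% confidence interval -0.37 to 0.31). The groups overlapped, as they did for Mx1, with a log2 change of 0.02 (-0.18 to 0.23). Oas1a, which makes the activator of RNase L, had -0.05 (-0.21 to 0.10), Bst2, the surface tether of budding viruses, 0.07, the chaperone gene Rtp4 0.10 and the GTPase gene Gbp2 0.08.

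Ifit2 and Ifit3 were higher on all mutant arrays without being called. Ifit3 was at 3.22, 3.42 and 3.19 in control and 3.44, 4.23 and 3.97 in mutant RPCs. Mutant replicate 1 lay only just above control replicate 2. For Ifit3 the log2 change was 0.60 (SE 0.19, limma adjusted p = 0.129), and without mutant replicate 1 it was 0.82 and was called. That of Ifit2 was 0.15 (95% confidence interval -0.03 to 0.33).

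**Figure D3:**
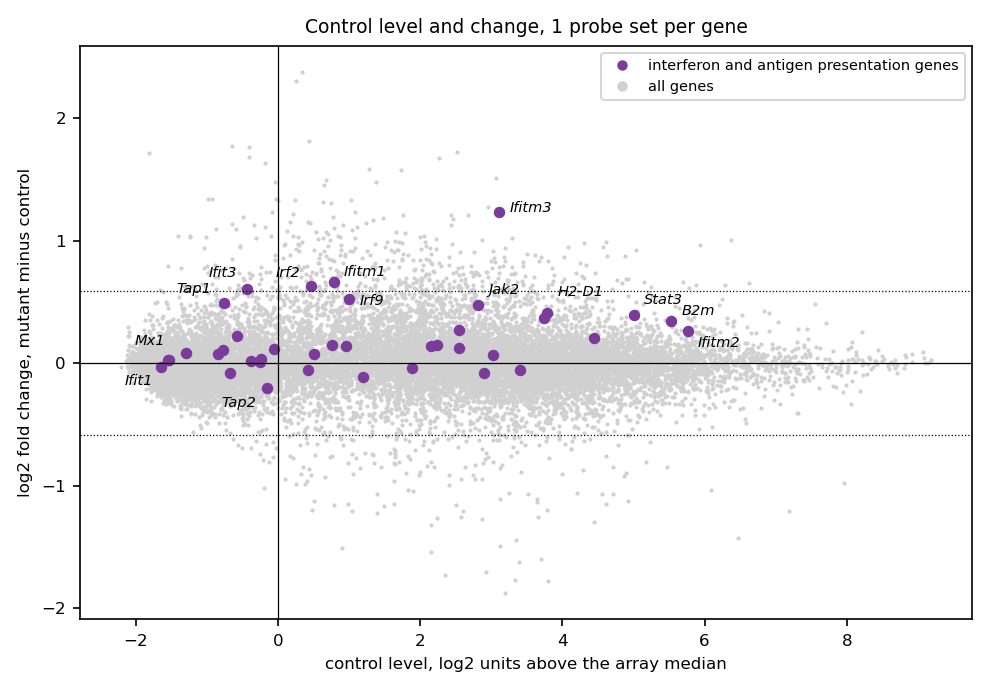
Log2 change, mutant minus control, against the control level in log2 units above the array median, for all 18193 genes (grey) and the 39 interferon and antigen presentation genes (purple). Dotted lines mark a 1.5-fold change; Ifitm3 stands 3.11 above the array median, whereas 15 of the 39 genes lie at or below it.

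All 3 class I molecule genes had an adjusted p under 0.10 and were higher, against 7.15% of all genes. Each difference was less than 1.5-fold, so none of the 3 was called. B2m encodes the light chain of every class I molecule. It was at 9.28, 9.20 and 9.24 in control and 9.61, 9.51 and 9.62 in mutant RPCs. The groups were clearly apart. For B2m the log2 change was 0.34 (SE 0.06, limma adjusted p = 0.0279), and its second probe set gave 0.37 (limma adjusted p = 0.0226).

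H2-D1 and H2-K1 encode the classical class I heavy chains. H2-K1 was at 7.60, 7.32 and 7.41 in control and 7.76, 7.86 and 7.83 in mutant RPCs. All mutant arrays were higher, and control replicate 1 came nearest to them. H2-K1 had a log2 change of 0.37 (SE 0.08, limma adjusted p = 0.0553). Of its 4 probe sets the 3 brighter ones gave 0.28 to 0.37, and the dimmest, below the array median, gave -0.18. H2-D1 was at 7.66, 7.42 and 7.38 in control and 7.83, 7.92 and 7.93 in mutant RPCs, with a log2 change of 0.41 (SE 0.09, limma adjusted p = 0.0468).

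The direction for H2-D1 differed between probe sets. Its 9 probe sets ranged from -0.90 to 0.41, and 2 fell. One, with a control mean of 4.14, 0.44 above the array median, had a log2 change of -0.89 (limma adjusted p = 0.0363). The other, at 3.53 and below the array median, had -0.90 (limma adjusted p = 0.0496). The second bright probe set, at 7.54 in control RPCs, gave 0.28 (limma adjusted p = 0.0838). Taking the median of the 9 probe sets on each array, the change was -0.46. Over the 77 probe sets of the 39 genes, 2 rose and 2, both of H2-D1, fell, against 1.67% and 0.984% of all probe sets. Most of the H2-D1 and H2-K1 probe sets are of a type that can bind related transcripts, and the heavy chain genes are close in sequence. The values of H2-D1 and H2-K1 are therefore uncertain as to gene. The brighter H2-D1 probe set not of that type, at 4.79 in control RPCs, gave 0.16 (limma adjusted p = 0.267). The dimmer one, below the array median, gave 0.01.

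**Figure D4:**
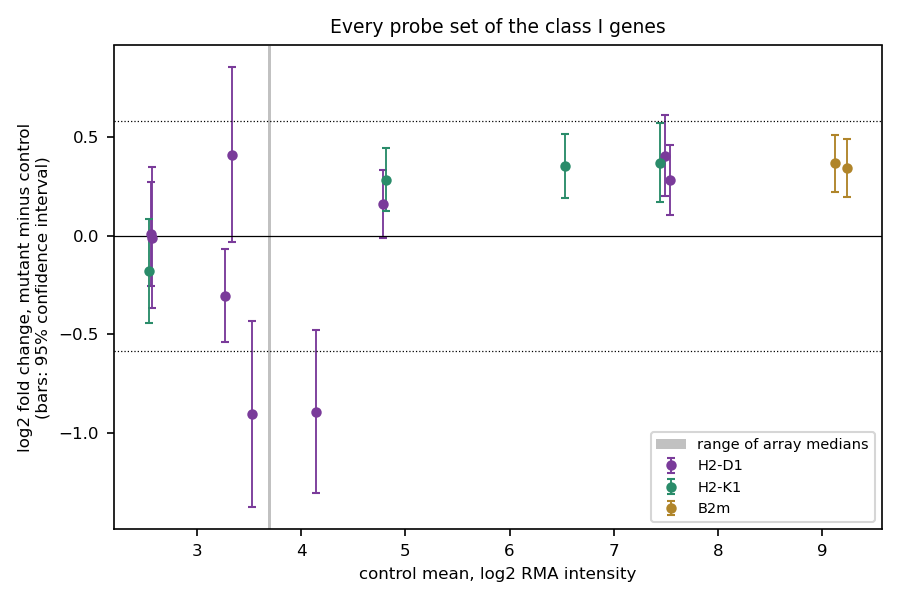
Log2 change, mutant minus control, with its 95% confidence interval, of every probe set of B2m, H2-D1 and H2-K1 against its mean log2 RMA intensity in 3 control arrays. The brightest probe sets lie between 0.28 and 0.41, and an H2-D1 probe set with a control mean of 4.79 lies at 0.16. The H2-D1 probe sets with control means of 4.14 and 3.53 lie at -0.89 and -0.90. Dotted lines mark a 1.5-fold change and the grey line the range of the array medians.

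None of the immunoproteasome or peptide loading genes was called. Psmb8, Psmb9 and Psmb10 encode the interferon-inducible catalytic subunits of the proteasome. Their log2 changes were 0.01 (95% confidence interval -0.14 to 0.16), 0.02 (-0.19 to 0.23) and -0.11 (-0.36 to 0.14), with overlapping arrays, and Psmb8 and Psmb9 were below the array median. Tap1 and Tap2 form the transporter that carries peptides to class I molecules. Tap1 was at 2.53, 3.17 and 3.13 in control and 3.79, 3.25 and 3.26 in mutant RPCs, where mutant replicate 1 was the highest, and its log2 change was 0.49 (-0.01 to 0.99). Tap2 was at 3.58, 3.47 and 3.58 in control and 3.35, 3.30 and 3.37 in mutant RPCs, the only one of the 39 genes with every mutant array below every control array. Its log2 change was -0.21 (limma adjusted p = 0.118). Tapbp, which encodes tapasin, the bridge between them, had 0.15 (-0.01 to 0.31).

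Beyond these genes, 126 further interferon and antigen presentation genes were measured, of which 2 rose and 0 fell by limma, against 2.28% and 0.918% of all genes. At an unadjusted p under 0.05, 15 were higher and 8 lower, against 12.8% and 11.6%. Their median log2 change was 0.02. The 2 that rose were Ifi202b, an interferon-inducible DNA-binding protein gene, and Stat6, which carries interleukin 4 signals. Ifi202b was at 3.59, 3.68 and 3.73 in control and 4.34, 4.62 and 4.56 in mutant RPCs, a log2 change of 0.84 (SE 0.09, limma adjusted p = 0.00643) from about the array median. Stat6 was at 4.95, 4.66 and 5.16 in control and 5.61, 5.53 and 5.54 in mutant RPCs, a log2 change of 0.63 (SE 0.12, limma adjusted p = 0.0345). Both were higher on every mutant array. Stat6 was not called without control replicate 2 (0.50) or without mutant replicate 1 (0.61), 2 (0.65) or 3 (0.64), nor by the median of its probe sets (0.47), without moderation of the variance or with a pseudocount of 16 (0.44).

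By group, 0 of 8 ligand genes, 1 of 23 receptor and Jak-Stat genes, 0 of 19 sensing genes, 1 of 50 effector genes and 0 of 26 antigen presentation genes rose, where 2.28% of all genes did. All 8 ligand genes, interferon beta (Ifnb1) and gamma (Ifng) among them, were below the array median in control RPCs, and none had an unadjusted p under 0.05. Ifnb1 had a log2 change of -0.13 and Ifng one of -0.04. At an adjusted p under 0.10 and less than 1.5-fold, Trim25 (0.40), Cd1d1 (0.38), Cxcl10 (0.32), Ifi30 (0.26) and Samd9l (0.26) were higher. Ly6e (-0.43), Ciita (-0.37) and Irf5 (-0.36) were lower at that adjusted p. With the 2 called genes, 7 of the 126 were higher and 3 lower, against 7.15% and 5.22% of all genes. Ciita is the master activator of class II genes.

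The summed intensity of the progenitor markers was 8082 to 8485 in control and 5586 to 5746 in mutant RPCs. Of the 9, 7 were lower on every mutant array, where 16.4% of all genes were. The median log2 change of the 9 was -0.19, and a sum gives most weight to the brightest markers. Several lists of markers for other ocular cell types were higher on the mutant arrays too. Of 13 endothelial markers 5 rose, where 2.28% of all genes did. The summed intensity of the 13 was 926 to 1232 in control and 1585 to 1698 in mutant RPCs. Of 13 mesenchyme and neural crest markers 6 rose, with sums of 610 to 651 and 957 to 1298. So did 6 of 11 pigment epithelium markers (6075 to 7433 and 9786 to 9809) and 6 of 14 lens and surface ectoderm markers (2772 to 3821 and 5029 to 5466). Of 8 erythroid markers 1 rose (2866 to 4945 and 5545 to 6198), and of 9 neuronal markers 5 fell (447 to 699 and 250 to 316). Over the 100 marker genes, 24 rose and 7 fell, against 2.28% and 0.918% of all genes. Without mutant replicate 2 the marker counts were 15 and 4.

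Immune cells express many of the 39 genes strongly. Of 16 macrophage and microglia markers none was called, though all 16 were above the array median in control RPCs, including the defining genes Ptprc, Csf1r and Aif1. At an unadjusted p under 0.05, 1 of them was higher, against 12.8% of all genes. The summed intensity of the 16 overlapped, at 1232 to 1611 in control and 1439 to 1688 in mutant RPCs. The log2 change was positive for 14 of the 16 markers, against 47.1% of all genes, and the median of the 16 was 0.16. All 7 lymphocyte markers were at or below the array median on every array, with sums of 46.5 to 52.2 and 48.8 to 50.4. Relative to the control mean, Ifitm3 was 2.63, 2.44 and 2.00 on mutant replicates 1, 2 and 3, and Irf2 was 1.79, 1.46 and 1.43. On the same arrays the mesenchyme and neural crest sum was 2.04, 1.56 and 1.503 and the endothelial sum was 1.44, 1.52 and 1.42. Ifitm3, Irf2 and the mesenchyme and neural crest sum were each highest on mutant replicate 1 and lowest on mutant replicate 3. Ifitm1 (1.83, 1.75 and 1.20) and the lymphocyte sum (1.02, 1.00 and 0.98) had this order too. So had Stat2 (1.08, 1.00 and 0.98) and Socs3 (1.02, 0.91 and 0.90), neither of which was called. No other marker sum had it, and Ifitm2 ran the other way (1.18, 1.19 and 1.23). Such an order over 3 mutant arrays was not tested. The share of these cell types in the rises of Ifitm3 and Irf2, and in the smaller differences of Jak2, Stat3 and the class I genes, was not tested.

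**Figure D5:**
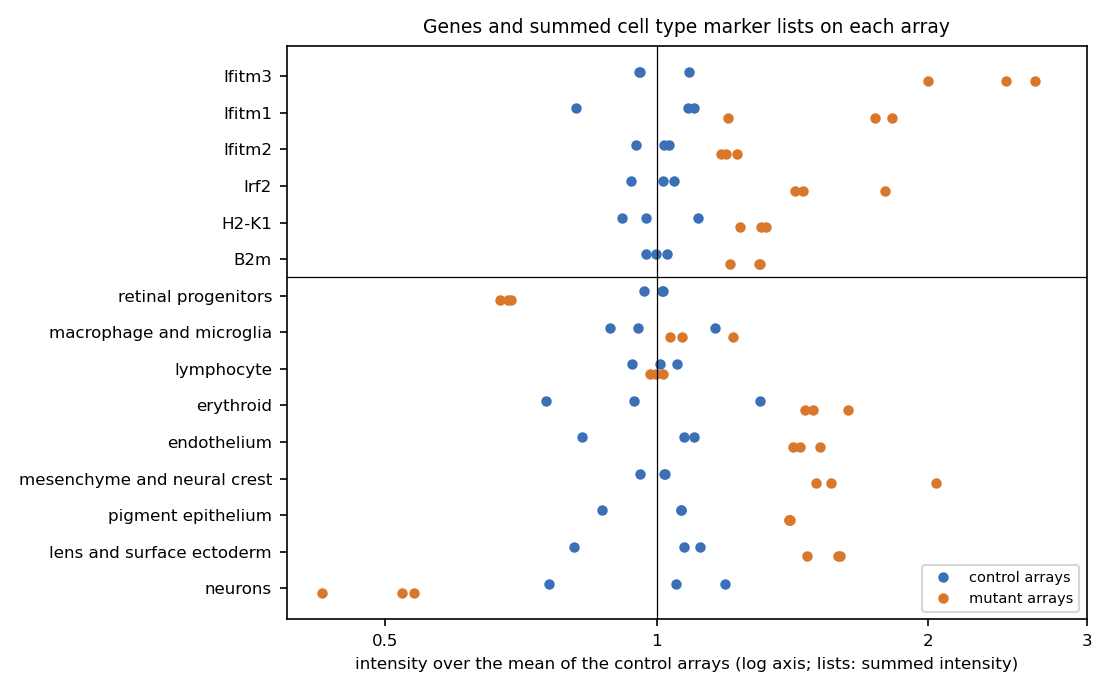
Intensity of 6 genes and summed intensity of 9 cell type marker lists on each of 3 control and 3 mutant arrays, divided by the mean of the control arrays, on a log axis. Ifitm3 lies at 2.00 to 2.63 on the mutant arrays, the mesenchyme and neural crest sum at 1.503 to 2.04 and the endothelial sum at 1.42 to 1.52, and the macrophage and microglia sum, at 1.04 to 1.22, overlaps the control arrays.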

How the data were processed

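Total RNA of sorted RPC pools was hybridised to Affymetrix mouse arrays. The deposited values are intensities on a linear scale, which the authors made from the scans with RMA (background correction, quantile normalisation and probe summary), per the labels with Affymetrix Expression Console. Tool versions were not given in the sources used, and scan batches were not known. Of 45101 probe sets, 64 control probe sets were left out. By the platform annotation, which can be old, 34945 probe sets had 1 gene, 932 several and 9160 none.

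The log2 intensities of 3 mutant and 3 control arrays were fitted with limma 3.58.1 in R 4.3.3 (lmFit and eBayes, Benjamini-Hochberg over all 45037 probe sets). The call thresholds are those of the study's methods, and its further check with SAM was not repeated. The fit was tested on simulated data. Tables, motif searches and plots were made in Python 3.11.15 with pandas 2.3.3, numpy 2.4.6 and matplotlib 3.10.9. Every member was named, with array values where it was called or had an adjusted p under 0.10, and some others chosen after their values were seen. Of the further pathway genes, those called were to be named, and those with an adjusted p under 0.10 were added after their values were seen. The members and all lists were chosen with earlier results of these data known. Alternatives changed the scaling, weights, moderation, dim probe set filter, pseudocount, probe set per gene, replicate block and left-out arrays.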

Additional observations from a re-analysis of the deposited data

How the results depend on the processing

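Of 383 values of single genes under the 10 alternatives that left out no array, 368 kept their direction and call, as did 213 of 234 with 1 array left out. Signs changed in 13 genes, none of which was called. Without moderation of the variance, 282 probe sets were higher and 178 lower, with 1 member, 1 further pathway gene, 6 markers higher and 3 markers lower called, against 752, 443, 2, 2, 24 and 7. With a pseudocount of 16 there were 343 probe sets higher and 174 lower, 1 member and 0 further pathway genes, and the member median was 0.078. The members called were 4 with an intensity trend and robust moderation, 4 without the lowest 40% of probe sets (32 genes kept, median 0.15) and 4 by the median of probe sets (median 0.073); in each, Ifitm1 and Ifit3 joined Ifitm3 and Irf2. With the array median subtracted, Ifitm1 was called. By the median of probe sets, Stat6 was not called and Trim25 (0.65) and Socs6 (0.59, against -0.08 by its brightest probe set) were. Irf2 was not called without moderation or with the pseudocount (0.37). Genes with an adjusted p under 0.10 numbered 3 without moderation, 13 with an intensity trend and robust moderation and 14 without the lowest 40%.

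By the median of probe sets, the log2 change was -0.16 for Ifnar1, 0.030 for Ifngr2, -0.025 for Ddx58 and -0.46 for H2-D1, and after a second quantile normalisation 0.0047 for Ifit1. With 1 array left out, probe sets called ranged from 544 to 787 higher and 342 to 504 lower, members from 2 to 3 (0 lower), further pathway genes from 1 to 2, markers from 15 to 24 higher and 4 to 10 lower, and the member median from 0.10 to 0.15. The log2 change ranged from -0.014 to 0.12 for Ifnar1, -0.18 to 0.073 for Ifngr2, -0.023 to 0.11 for Stat2, -0.18 to 0.028 for Irf7, -0.0100 to 0.39 for Socs1, -0.17 to 0.034 for Socs3, -0.042 to 0.081 for Usp18, -0.16 to 0.14 for Ifit1, -0.048 to 0.081 for Mx1, -0.020 to 0.038 for Psmb8 and -0.052 to 0.068 for Psmb9. Apart from what the construction of each alternative shows, the cause of these shifts was not tested.

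The replicate numbers did not pair the arrays: deviations of same-numbered arrays correlated at -0.011, -0.00064 and -0.0085. With the replicate number as a block, 709 probe sets were higher and 427 lower, and 3 members were called, Ifit3 with the others, with 5 at an adjusted p under 0.10. Members below the array median may be near the floor of these arrays, which was not measured, so their small differences should not be relied on.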

Other observations

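Some probe sets are annotated to a member and to a related gene, and they entered none of the counts. The probe set of both H2-K1 and H2-D1 was at 4.44, 4.34 and 4.59 in control and 4.98, 4.93 and 5.03 in mutant RPCs, a log2 change of 0.52 (limma adjusted p = 0.0170) with no overlap. The probe set of both H2-Q5 and H2-K1 gave -0.17, and that of Gm38417, H2-Q2 and H2-D1 gave -0.04. The probe set of both Isg15 and Gm9706 was below the array median, at 3.35, 3.03 and 3.37 in control and 3.24, 3.26 and 3.36 in mutant RPCs, a log2 change of 0.04 (95% confidence interval -0.21 to 0.28).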
